A study of Drosophila melanogaster with 6 samples.

Results

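The autophagy genes Atg1, Atg5, Atg7, Atg8a, Atg8b, Atg9, Atg18a and ref(2)P were read in single-cell RNA-seq libraries of dissociated Drosophila melanogaster brains. They were chosen by symbol, and all 8 were found among the 22064 features of the matrices, with 1 row each. Flies carrying the tau P251L knock-in, labelled elav-tau P251L KI, were compared with control flies labelled elav-GAL4(x)/+, with 3 libraries per genotype. elav-GAL4 is a driver transgene that is active in neurons, and tau encodes the fly's microtubule-associated protein Tau. For each library, brains from 20 male and 20 female flies were dissociated together. Fly age is not given in the sources used here. The libraries are droplet libraries of transcript 3′ ends, in which each unique molecular identifier (UMI) stands for 1 captured transcript molecule. Nothing in the labels says that the libraries of a genotype came from separate crosses, so p-values measure the spread between these libraries only.

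Autophagy delivers cytoplasm and damaged organelles to the lysosome inside a double membrane, the autophagosome. A kinase complex starts its formation, membrane is supplied and marked by a phosphoinositide, and a ubiquitin-like conjugation system attaches Atg8 to the growing membrane, where cargo receptors bind. The autophagosome then fuses with a lysosome, whose proton pump and hydrolases break the content down. In the fly brain, loss of autophagy genes is known to lead to protein aggregates and neurodegeneration, and ref(2)P protein accumulates where autophagic flux is low.

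By role, Atg1 is the kinase that starts autophagosome formation. It lies on chromosome arm 3L, 12784429 to 12805116 (BDGP6, as are all positions here). Atg9, a transmembrane protein of the vesicles that supply membrane, lies on 2R, 16294400 to 16297232. Atg18a, which binds the phosphoinositide PI3P, lies on 3L, 8186857 to 8191118. Atg7 is the activating enzyme of the conjugation system (2R, 18620466 to 18625044), and Atg5 forms part of the complex that attaches Atg8 to lipid (X, 7314622 to 7323770). Atg8a (X, 10764878 to 10768338) and Atg8b (3R, 17724410 to 17725063) are the fly's ubiquitin-like Atg8 proteins, and Atg8b is known mainly from the male germline. ref(2)P (2L, 19542468 to 19545548) encodes the fly counterpart of the mammalian cargo receptor p62. Exons of ref(2)P overlap those of CG10337 on the opposite strand. The strand used in counting is not stated, and whether reads of CG10337 were counted for ref(2)P was not checked. Atg1, Atg5 and Atg7 overlap other annotated genes only outside exons.

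Depth differed within both genotypes. The matrices held 114599045, 95770658 and 37984526 UMIs in knock-in replicates 1 to 3 and 22026339, 103683860 and 26732897 UMIs in control replicates 1 to 3. Barcodes with at least 1000 UMIs were taken as cells, which gave 27747, 30602 and 7932 knock-in cells and 5467, 24278 and 5693 control cells. Pairs of libraries shared 0.0703% to 1.02% of the cell barcodes of the smaller library. Knock-in replicate 3 stood apart in tau itself, with 311.9, 331.4 and 70.4 CPM (UMIs scaled to library size) in knock-in replicates 1 to 3 and 246.1, 269.2 and 280.6 CPM in the controls. The knock-in changes the protein sequence of Tau, so counts of transcript ends do not check the genotype labels. Values without this library are given where it changes a call or a direction.

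Across all cells, the 8 genes did not differ detectably between genotypes. Of the 7 with enough UMIs to test, 0 passed an adjusted p of 0.05 in edgeR's quasi-likelihood test, where 25 of 11200 features (0.223%) passed. None of the 7 reached an unadjusted p of 0.05 either, where 12% of all features did, and none had groups that did not overlap, as 18.8% of all features had. DESeq2 also called none of the 7. The median log2 fold change of the 7 genes, knock-in against control, was -0.03, beside a median of 0.0020 over all features tested. In sums over a library, fewer cells of a type and less RNA per cell cannot be told apart.

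**Figure D1:**
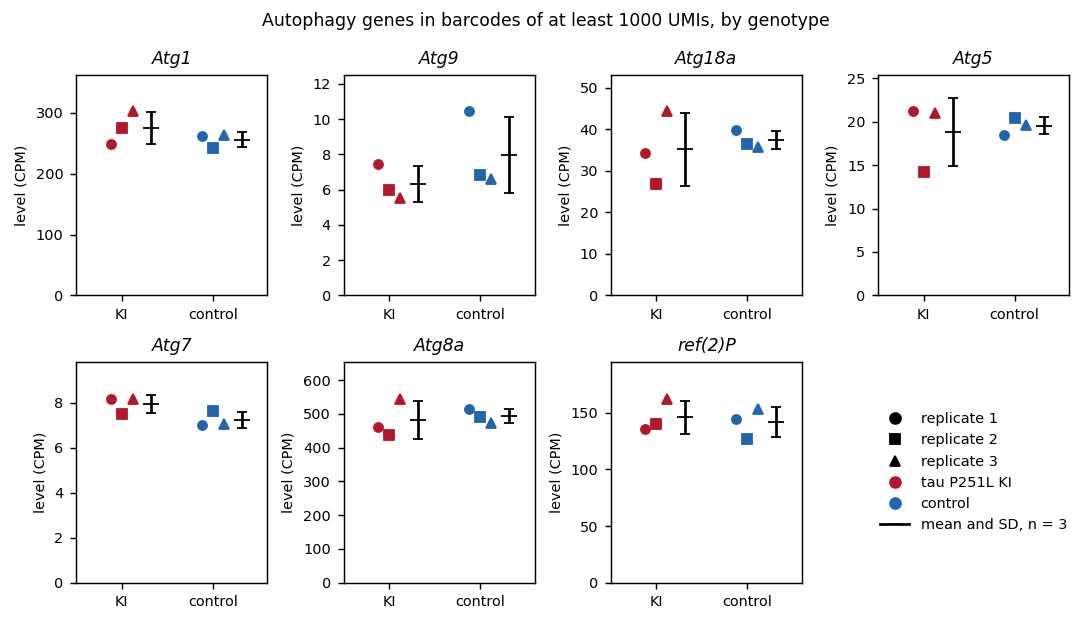
Level of the 7 tested autophagy genes in all cells, in CPM on axes that start at 0, with 1 point per library (knock-in left, control right) and the mean and SD beside them. In every panel the points of the genotypes overlap, as for Atg8a at 437.4 to 545.1 CPM in the knock-in and 472.9 to 515.1 CPM in controls.

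The initiating kinase Atg1 had 249.3, 275.1 and 302.4 CPM in knock-in replicates 1 to 3 and 262.4, 242.1 and 263.8 CPM in control replicates 1 to 3. Knock-in replicate 3 was the highest library and control replicate 2 the lowest, and the groups overlapped. The log2 fold change was 0.11 with a 95% interval of -0.16 to 0.37 (edgeR, adjusted p = 0.696). Atg9 ranged over 5.50 to 7.48 CPM in the knock-in libraries and over 6.59 to 10.4 CPM in the controls, with control replicate 1 above all others. On the log2 scale its difference of -0.33 had the widest interval of the 7 genes, -0.92 to 0.27, and rested on 1179 knock-in and 797 control UMIs. Atg18a had 34.4, 26.8 and 44.3 CPM in the knock-in and 39.9, 36.5 and 35.7 CPM in controls, so that the knock-in libraries held both its lowest and its highest value.

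Among the conjugation genes, Atg8a had 461.4, 437.4 and 545.1 CPM in knock-in replicates 1 to 3 and 515.1, 490.4 and 472.9 CPM in the controls. Knock-in replicates 1 and 2 lay below every control and replicate 3 above every control. Knock-in against control, the log2 fold change was -0.03, with a 95% interval of -0.32 to 0.25 (edgeR, adjusted p = 0.915). Atg5 had 21.2, 14.2 and 21.0 CPM in the knock-in and 18.5, 20.5 and 19.6 CPM in controls, with knock-in replicate 2 the low library. Atg7 had 8.16, 7.49 and 8.19 CPM in the knock-in and 7.01, 7.63 and 7.08 CPM in controls, a log2 fold change of 0.13 with an interval of -0.26 to 0.53. Atg8b was almost absent. It had 2 UMIs in knock-in replicate 2, 1 UMI in knock-in replicate 3 and 0 in the other 4 libraries, and was not tested.

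The cargo receptor ref(2)P had 135.7, 140.1 and 162.5 CPM in knock-in replicates 1 to 3 and 144.2, 127.3 and 153.7 CPM in the controls. Replicate 3 was the highest library of both genotypes, and the groups overlapped. Its log2 fold change was 0.04, with an interval of -0.24 to 0.33 (edgeR, adjusted p = 0.889). The direction of the small differences depended on single libraries. Without knock-in replicate 3 the value of ref(2)P was -0.01, and without knock-in replicate 2 the value of Atg8a was 0.03, that of Atg18a 0.07 and that of Atg5 0.11. A p that misses the threshold does not show that levels were equal. The 95% intervals of Atg1, Atg8a and ref(2)P lay between -0.32 and 0.37.

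Transcripts were also found outside cells. Barcodes of at least 50 and under 500 UMIs are mostly droplets without a cell, and the levels below are without further scaling. Atg1 had 245.3 to 295.2 CPM in cells and 45.6 to 94.7 CPM in these droplets. Atg8a had 409.9 to 562.6 CPM in cells and 165.0 to 313.6 CPM in the droplets, and ref(2)P had 129.0 to 158.6 CPM in cells and 51.7 to 96.8 CPM in the droplets. For these genes every library's cells lay above every library's droplets. Atg9 had 5.37 to 11.4 CPM in cells and 2.01 to 13.7 CPM in the droplets, and in all 3 control libraries its level was lower in cells than in the droplets.

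Cells were then gated by transmitter and glial genes. The cholinergic gate took cells with at least 2 UMIs of VAChT, the vesicular acetylcholine transporter. The glutamatergic gate used VGlut and the GABAergic gate Gad1 in the same way, prt marked Kenyon cells, the intrinsic neurons of the mushroom body, and at least 1 UMI of repo, a glial transcription factor, marked glia. Each gate required 0 UMIs of the other gate genes, except that VAChT was allowed in the prt gate, since Kenyon cells are cholinergic. Knock-in libraries held 34 to 137 repo cells and 313 to 735 prt cells, and control libraries held 32 to 111 and 161 to 585. In the 3 transmitter gates the smallest group of cells was 748 in the knock-in and 532 in controls. The 11 glial markers summed to 7860 to 11369 CPM in the repo gate, against means of 260.4 to 446.9 CPM in the neuron gates. The 8 Kenyon markers averaged 19835 CPM in the prt gate against 1657 to 3463 CPM elsewhere. These sums include the gate genes repo and prt, so part of each contrast was fixed by the gating. The 5 neuron markers still summed to 526.8 to 2785 CPM in the repo gate.

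Within the gates the genotypes again gave no call for the autophagy genes. In edgeR, 0 of 7 tested genes passed in the VAChT gate, where 28 of 8984 features (0.312%) did, 0 of 7 in the VGlut gate (17 of 7921, 0.215%) and 0 of 7 in the Gad1 gate (23 of 7460, 0.308%). In the prt gate 0 of 5 passed, beside 17 of 6073 features (0.28%), and in the repo gate 0 of 3, beside 2 of 2578 (0.0776%). None of them reached an unadjusted p of 0.05, which 8.73% of features did in the VAChT gate, 6.53% in the VGlut gate, 6.37% in the Gad1 gate, 8.17% in the prt gate and 13% in the repo gate. DESeq2 called none of them in any gate. In the VAChT gate, the deepest, log2 fold changes lay between -0.40 for Atg9 and 0.11 for ref(2)P.

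In glia, ref(2)P had the only levels whose genotypes did not overlap, a state shared by 20.1% of the features tested there. On the scale shared by all gates it had 277.6, 292.6 and 237.7 CPM in the repo gates of knock-in replicates 1 to 3 and 158.0, 219.7 and 203.7 CPM in those of the controls. All 3 knock-in libraries lay above all 3 controls, from 102, 56 and 28 UMIs in the knock-in and 15, 62 and 33 UMIs in controls. Fitted within the gate, the log2 fold change was 0.35 with an interval of -0.23 to 0.93, which did not pass (edgeR, adjusted p = 0.582). Without the deepest 10% of barcodes it was -0.0062. The sum of the 5 neuron markers in the repo gate was 764.0 to 2785 CPM in the knock-in and 526.8 to 1417.5 CPM in controls, and its part in the ref(2)P levels was not tested. The difference between the genotype effect in the repo gate and that in the 4 neuron gates was 0.46 for ref(2)P (edgeR, adjusted p = 0.358), and 0 of 7 autophagy genes passed that test, which called 205 of 7984 features (2.57%).

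Between cell types the differences were larger. Atg1 was lower in glia than in neurons in every library, ref(2)P and Atg9 were higher in glia in 5 of 6 libraries, and ref(2)P was higher in the VGlut, Gad1 and prt gates than in the VAChT gate on average. Each library supplied cells to every gate, so gates were compared within libraries, with the library as a block. Of the 7 genes, 3 passed between the repo gate and the 4 neuron gates in edgeR, where 52.8% of 7984 features passed, so that a call by itself is common in this comparison.

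**Figure D2:**
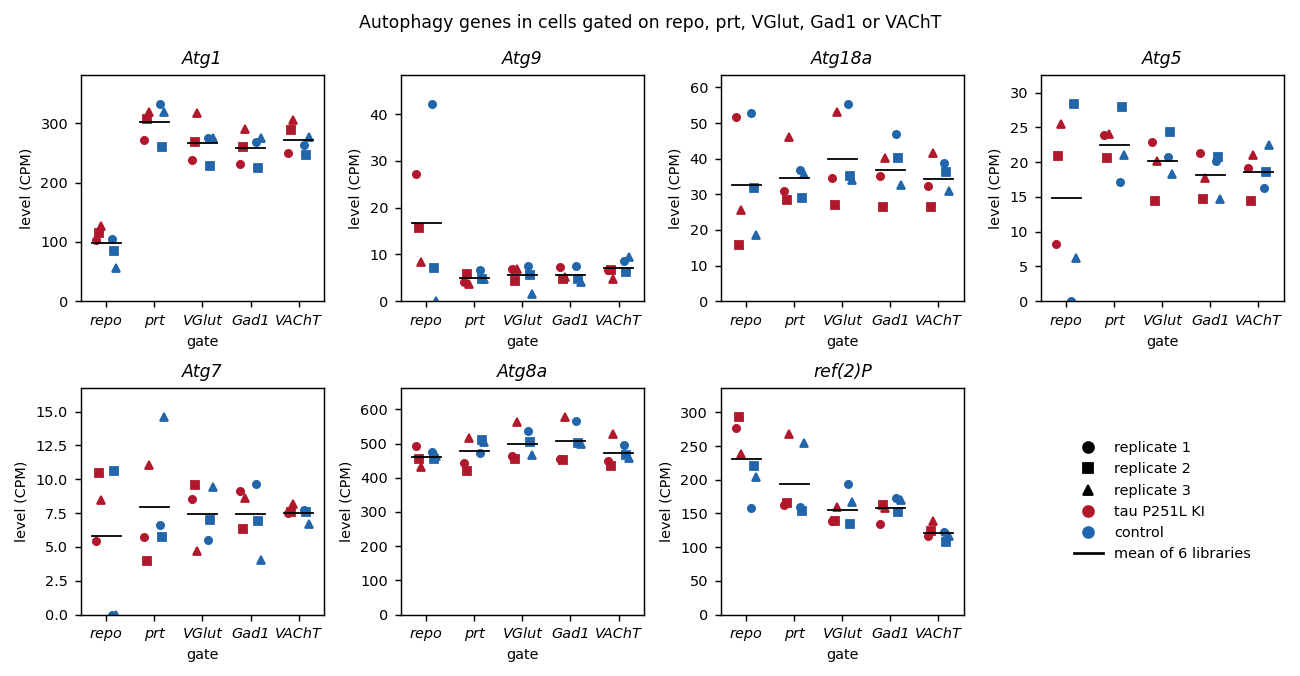
Level of the 7 tested autophagy genes in each gate, in CPM on axes that start at 0, with 1 point per library (knock-in left of control within a gate) and a line at the mean of the 6 libraries. Atg1 lies at 55.5 to 127.3 CPM in the repo gate of every library and above 223 CPM in every neuron gate, while Atg8a lies between 420.5 and 576.5 CPM throughout.

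Atg1 was low in glia. In the repo gate it had 103.4, 114.9 and 127.3 CPM in knock-in replicates 1 to 3 and 105.4, 85.1 and 55.5 CPM in control replicates 1 to 3. No repo gate reached the lowest neuron gate, the Gad1 gate of control replicate 2 at 223.7 CPM. Over the 6 libraries Atg1 averaged 98.6 ± 25.3 CPM in the repo gate and 274.6 ± 25.8 CPM in the neuron gates (SD, n = 6), and was lower in glia in 6 of 6 libraries. On the log2 scale the repo gate differed by -1.46, with an SE of 0.10 (edgeR, adjusted p = 4.36e-14), and 16 alternative settings gave values between -1.89 and -1.29, each past the threshold.

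ref(2)P was high in glia. It averaged 231.5 ± 49.4 CPM in the repo gate and 157.1 ± 19.2 CPM in the neuron gates (SD, n = 6), and was higher in glia in 5 of 6 libraries, control replicate 1 being the exception. This was a log2 fold change of 0.67 with an SE of 0.12 (edgeR, adjusted p = 2.73e-05), but with every cell thinned to 1000 UMIs it was 0.34 and did not pass (edgeR, adjusted p = 0.172). Atg9 had 27.2, 15.7 and 8.49 CPM in the repo gates of knock-in replicates 1 to 3 and 42.1, 7.09 and 0 CPM in those of the controls. The repo gate averaged 16.8 ± 15.5 CPM and the neuron gates 5.78 ± 0.97 CPM (SD, n = 6), and glia were higher in 5 of 6 libraries. Its log2 fold change of 1.52 (SE 0.43, adjusted p = 0.00373 in edgeR) rested on 20 UMIs in all repo gates, 10 of them from knock-in replicate 1. Without that library the value was 1.14 and did not pass (edgeR, adjusted p = 0.102), and without the deepest 10% of barcodes it was 1.10 (edgeR, adjusted p = 0.138).

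Atg8a varied little across cell types. It averaged 461.8 ± 20.3 CPM in the repo gate, 478.0 ± 39.2 in the prt gate, 498.3 ± 45.0 in the VGlut gate, 508.0 ± 53.7 in the Gad1 gate and 472.7 ± 34.4 in the VAChT gate (SD, n = 6 each). No neighbours in the order of these means differed by more than their SD. Within libraries, Atg8a was higher in 6 of 6 in the VGlut gate than in the VAChT gate (log2 fold change 0.07, adjusted p = 0.514 in edgeR) and in 6 of 6 in the Gad1 gate than in the VAChT gate (0.10, adjusted p = 0.274 in edgeR), and neither passed. Glia against neurons, the log2 fold change was -0.06, with an interval of -0.18 to 0.07 (edgeR, adjusted p = 0.639). The unadjusted p was 0.546 (edgeR), larger than this interval implies. The log2 fold change fell past the threshold to -0.35 without the deepest 10% of barcodes (edgeR, adjusted p = 0.0012). It fell to -0.26, also past the threshold, when glia needed 2 UMIs of repo (edgeR, adjusted p = 0.00535). With a minimum of 2000 UMIs per cell it was positive, at 0.07. Atg18a, Atg5 and Atg7 did not pass, with log2 fold changes of -0.01, -0.38 and -0.19 from 42, 19 and 8 UMIs in the repo gates. Atg8b had 0 UMIs in every repo, prt, VGlut and VAChT gate and 1 UMI in the Gad1 gates.

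On average, Kenyon cells had more Atg1 and ref(2)P than the other neurons, with the excess of ref(2)P largest in the replicate 3 libraries. In edgeR, 3 of the 7 genes were higher in the prt gate than in the mean of the VAChT, VGlut and Gad1 gates, in a comparison that called 56.7% of 7984 features. ref(2)P averaged 194.0 ± 52.3 CPM in the prt gate and 144.8 ± 13.0 CPM in the 3 transmitter gates (SD, n = 6). Replicate 3 stood apart, with 268.0 CPM in the prt gate of the knock-in and 254.3 CPM in that of the control. The other 4 libraries had 154.1 to 165.0 CPM, near the means of the VGlut gate (155.4 CPM) and the Gad1 gate (158.2 CPM). The log2 fold change of ref(2)P was 0.41 with an SE of 0.09 (edgeR, adjusted p = 0.00027), positive in 5 of 6 libraries. It was past the threshold under all 16 alternatives, at 0.32 to 0.47, but none of them left out both replicate 3 libraries. Atg1 averaged 301.7 ± 28.9 CPM in the prt gate and 265.5 ± 26.0 CPM in the 3 transmitter gates (SD, n = 6), higher in 6 of 6 libraries. Its log2 fold change of 0.18 (SE 0.06, adjusted p = 0.00614 in edgeR) lost its call in 5 of 16 alternatives, among them the thinning of cells (0.14) and the fit without control replicate 1 (0.15). Atg5 had 22.4 ± 3.68 CPM in the prt gate and 19.0 ± 2.45 CPM in the others (SD, n = 6). Its log2 fold change of 0.27 (edgeR, adjusted p = 0.0434) was lost in 12 of 16 alternatives. Prt cells were the deepest of the gates, with medians of 2889 to 5301 UMIs per cell in the knock-in and 2947 to 4760 in controls.

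Among the transmitter classes only ref(2)P passed. It averaged 155.4 ± 22.7 CPM in the VGlut gate and 158.2 ± 14.2 CPM in the Gad1 gate, and 120.9 ± 10.3 CPM in the VAChT gate (SD, n = 6 each). In the VGlut gate it had 139.1, 139.5 and 159.3 CPM in knock-in replicates 1 to 3 and 193.6, 134.0 and 166.6 CPM in the controls. In the VAChT gate the values were 116.9, 123.4 and 138.2 CPM in the knock-in and 123.2, 107.2 and 116.5 CPM in the controls, so that every library was higher in its VGlut gate. VGlut against VAChT, the log2 fold change was 0.35 (edgeR, adjusted p = 0.025) in a comparison that called 13% of 7984 features, and the call was lost in 6 of 16 alternatives. They include the fits without knock-in replicate 1 (0.37, adjusted p = 0.0523 in edgeR), control replicate 1 (0.29), control replicate 2 (0.36) and control replicate 3 (0.32). Gad1 against VAChT, it was 0.39 (edgeR, adjusted p = 0.00873), higher in 6 of 6 libraries, where 18.9% of features were called. That call was lost in 1 of 16 alternatives, the fit without the library as a block (edgeR, adjusted p = 0.138). In order of level, ref(2)P ran from the VAChT gate through the VGlut, Gad1 and prt gates to the repo gate. The VGlut and Gad1 means lay within 1 SD of each other, and so did the prt and repo means. The Gad1 and prt means differed by more than the SD of the Gad1 gate but less than that of the prt gate, 52.3 CPM. These SDs are between libraries, while the tests compared gates within libraries.

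The features whose levels followed Atg8a and ref(2)P most closely were taken over the 30 sums of 6 libraries and 5 gates, among 4624 features with a mean of at least 20 CPM. For Atg8a they were Idh3b (Pearson r of log2 CPM 0.76), COX5B (0.74), Mis12 (0.72), CG8993 (0.71) and levy (0.69). Idh3b encodes a subunit of the mitochondrial isocitrate dehydrogenase, and COX5B and levy encode subunits of cytochrome c oxidase. For ref(2)P they were par-1 (0.77), Xrp1 (0.77), CG13868 (0.76), CG4297 (0.76) and pum (0.75). par-1 encodes a kinase known to phosphorylate Tau, Xrp1 a stress-responsive transcription factor and pum a translational repressor. The 30 sums share libraries, depth and free RNA, so these are descriptions.

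The wider pathway was read from a list of 92 autophagy and lysosome genes that includes the 8, of which 86 are in the matrices. Between genotypes in all cells, 0 of 83 tested genes passed in edgeR, and 7 had an unadjusted p under 0.05. The log2 fold changes were positive for 42 genes and negative for 41, with a median of 0.01. Groups did not overlap for 6 genes that were higher and 8 that were lower in the knock-in, beside 8.88% and 9.95% of all features. Of the genes named below, DESeq2 called Gba1b (adjusted p = 0.0197) and Cln7 (adjusted p = 0.00033). Within the gates, 0 of 79 list genes passed in the VAChT gate, 0 of 79 in the VGlut gate, 0 of 78 in the Gad1 gate and 0 of 72 in the prt gate in edgeR, with 3, 0, 2 and 4 genes at an unadjusted p under 0.05.

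**Figure D3:**
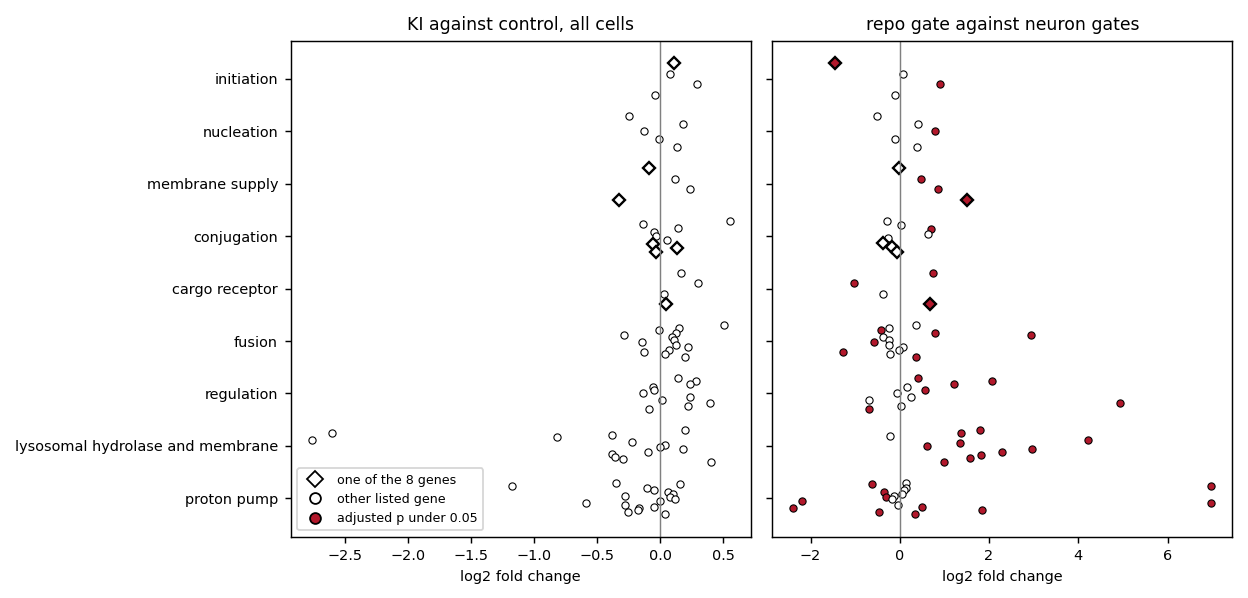
Log2 fold changes of the autophagy and lysosome list by role, for knock-in against control in all cells (left) and for the repo gate against the 4 neuron gates (right); each symbol is 1 gene, diamonds are members of the set of 8 and filled symbols passed an adjusted p of 0.05 in edgeR. On the left no symbol is filled, and on the right 10 of 11 lysosomal hydrolase and membrane genes are filled and to the right of 0.

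The lowest of the genes with separate groups were Gba1b, Cln7 and Vha100-2. Gba1b, a glucocerebrosidase, had 0.40 ± 0.31 CPM in the knock-in and 2.91 ± 1.98 CPM in controls (log2 fold change -2.76, adjusted p = 0.297 in edgeR, n = 3 each). Cln7, the fly counterpart of a lysosomal membrane protein of neuronal ceroid lipofuscinosis, had 0.68 ± 0.33 and 4.25 ± 2.50 CPM (-2.61, adjusted p = 0.179 in edgeR, n = 3 each). Vha100-2, a membrane subunit of the proton pump, had 1.03 ± 0.17 and 2.35 ± 0.67 CPM (-1.17, adjusted p = 0.287 in edgeR, n = 3 each). In the same libraries, the 5 fat body markers summed to 24.3 to 444.4 CPM in the knock-in and 395.9 to 4062.3 CPM in controls, and the 11 glial markers to 567.1 to 1051 CPM in the knock-in and 432.0 to 663.0 CPM in controls. Their part in these differences was not tested. The highest were Epg5, an autophagosome tether (0.51, adjusted p = 0.298), bchs, the fly's Alfy-like adaptor for aggregates (0.30, adjusted p = 0.386), and REPTOR, a transcription factor held back by TOR (0.24, adjusted p = 0.448), none of which passed in edgeR.

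Between glia and neurons the list moved in both directions, with 31 of 79 genes higher and 12 lower in the repo gate in edgeR, beside 23.7% and 29.1% of all features. The median log2 fold change of the list was 0.10 and that of all features was -0.17. Lysosomal hydrolases and membrane proteins were higher for 10 of 11 genes, with a median of 1.57. They include the genes Npc2a, for a sterol transfer protein (2.96), cathD, for a protease (1.57), and Lamp1, for a membrane protein (1.34), examples chosen after their values were seen. The 5 fat body markers were also higher on average in the repo gate, where they summed to 967.7 to 3133 CPM with a mean of 1902 CPM. Their means were 284.4 to 569.7 CPM in the neuron gates. The ranges over libraries overlapped, as the highest sums were 1924.5 CPM in the VAChT gate, 1245.9 in the VGlut gate and 1009.7 in the Gad1 gate. In the prt gate the highest was 728.6 CPM. Most of the sum in the repo gate was apolpp, the lipophorin precursor, with a mean of 1225 CPM there, and Lsp2 was at 0 in every repo gate. The part of these markers in the list's differences was not tested. Subunits of the proton pump rose for 5 and fell for 6 of 18 genes. Vha68-2 had 297.9 ± 95.8 CPM in the repo gate and 2.10 ± 1.45 CPM in the neuron gates (log2 fold change 6.99, adjusted p = 1.73e-19 in edgeR, SD, n = 6). Its paralogue Vha68-1, for the same catalytic subunit, had 73.8 ± 56.0 CPM in the repo gate and 360.2 ± 7.66 CPM in the neuron gates (-2.18, adjusted p = 1.39e-12 in edgeR, SD, n = 6).

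Other pump paralogues also moved in opposite directions. Vha100-2 was higher in the repo gate by 6.97 on the log2 scale (adjusted p = 1.58e-17 in edgeR) and VhaM9.7-a lower by 2.39 (log2 fold change -2.39, adjusted p = 2.95e-16 in edgeR). VhaM9.7-b was higher by 1.84 (edgeR, adjusted p = 4.05e-15) and Vha100-1 lower (-0.63, adjusted p = 1.01e-06 in edgeR), both named after their values were seen. Reads of paralogues can be shared in counting, which was not checked here. foxo, a transcription factor of insulin signalling that is known to regulate autophagy genes, was at 142.3 ± 38.7 CPM in the repo gate and 6.48 ± 2.07 CPM in the neuron gates (4.93, adjusted p = 6.47e-16 in edgeR, SD, n = 6). Of the 4 initiation genes Atg1 was the one that passed as lower in glia, and it was the third lowest of the list, while its partner Atg13 was higher (0.91, adjusted p = 2.08e-06 in edgeR).

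In Kenyon cells 12 of 79 list genes passed as higher and 30 as lower in edgeR, beside 27.7% and 29% of all features. The proton pump had 11 lower and 1 higher of 18, and the lysosomal hydrolase and membrane group 8 lower and 2 higher of 11. The lowest were Hexo2, a hexosaminidase (3.11 ± 2.46 CPM in the prt gate and 13.3 ± 3.73 CPM in the transmitter gates, log2 fold change -1.76), Npc2a (-1.71) and foxo (-1.40). The highest were Snap29, a SNARE of autophagosome fusion (0.47), ref(2)P (0.41) and Rab2, a GTPase of fusion (0.39). Against the VAChT gate, the VGlut gate had 14 list genes higher and 0 lower in edgeR, where 6.3% of features were higher and 6.69% lower, 10 of them subunits of the proton pump, with all 18 pump genes positive. DESeq2 was not run between gates, and 24 of the 79 genes had an unadjusted p under 0.05, as 22.6% of all features did. The Gad1 gate had 19 higher and 3 lower than the VAChT gate, with 12 of the 19 in the proton pump, beside 9.73% and 9.16% of features.

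The genotype effect in glia was read for the same pump genes. In the repo gate 0 of 48 tested list genes passed in edgeR and 10 had an unadjusted p under 0.05, while DESeq2 called 22 features in all. Of the 18 pump genes, 15 had negative log2 fold changes, with a median of -0.65 beside 0.03 for all features, and 9 had groups that did not overlap with the knock-in lower, beside 11.1% of all features. In the repo gate the 5 neuron markers summed to 764.0 to 2784.5 CPM in the knock-in and 526.8 to 1417.5 CPM in controls, and their part in the pump levels was not tested. The median mitochondrial share of UMIs per cell, over all cells, was 5.86%, 6.55% and 6.46% in knock-in replicates 1 to 3 and 3.21%, 4.28% and 3.88% in the controls, with no overlap, and its part in the pump levels was not tested. Vha16-1, for a membrane subunit of the pump, had 1050 ± 109.5 CPM in the repo gates of the knock-in and 1958 ± 188.4 CPM in those of the controls (-0.90, adjusted p = 0.167 in edgeR, SD, n = 3 each). Vha13, for a stalk subunit, had 626.9 ± 64.7 CPM in the knock-in and 1167 ± 169.3 CPM in controls (-0.89, adjusted p = 0.184 in edgeR, SD, n = 3 each). In the neuron gates the median over the pump genes was -0.06 in the VAChT gate, -0.10 in the VGlut gate, -0.05 in the Gad1 gate and -0.14 in the prt gate. The test of the difference between glia and neurons called 3 of the 79 list genes lower in glia and 0 higher, beside 0.852% of features lower and 1.72% higher.

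**Figure D4:**
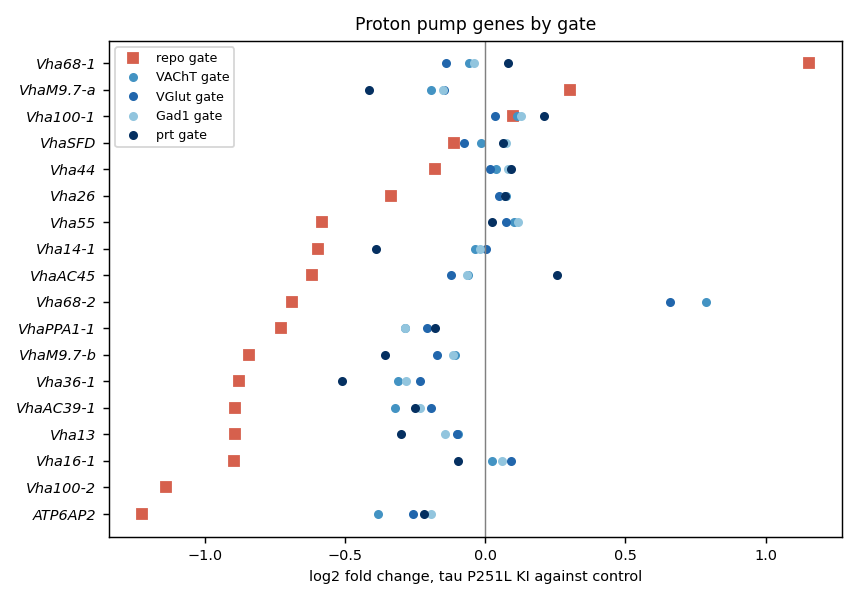
Log2 fold change, knock-in against control, of the proton pump genes tested in the repo gate (squares) and in the VAChT, VGlut, Gad1 and prt gates (circles), each fitted within its gate. In the repo gate 15 of 18 genes lie left of 0 and none passed an adjusted p of 0.05 in edgeR.

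Male and female cells were told apart by the roX RNAs, which coat the male X chromosome. Cells with at least 2 roX UMIs were taken as male and cells with 0 as female, within each library. Male cells made up 57.9%, 68.8% and 47.7% of cells in knock-in replicates 1 to 3 and 45.5%, 73.8% and 45.4% in the controls. Female cells made up 29.5%, 21.6% and 44.5% in the knock-in and 50.9%, 18.2% and 45.8% in the controls. Each library pooled equal numbers of male and female brains, and the part of free roX RNA in these shares was not tested. Of the 7 tested autophagy genes, 3 differed between male and female cells in edgeR, in a comparison that called 444 of 9129 features (4.86%), 2.28% higher and 2.59% lower in male cells. The differences were small in size and shared by all 6 libraries. Male cells were also deeper in every library, with medians of 1662 to 2660 UMIs, against 1569 to 2173 UMIs in female cells.

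**Figure D5:**
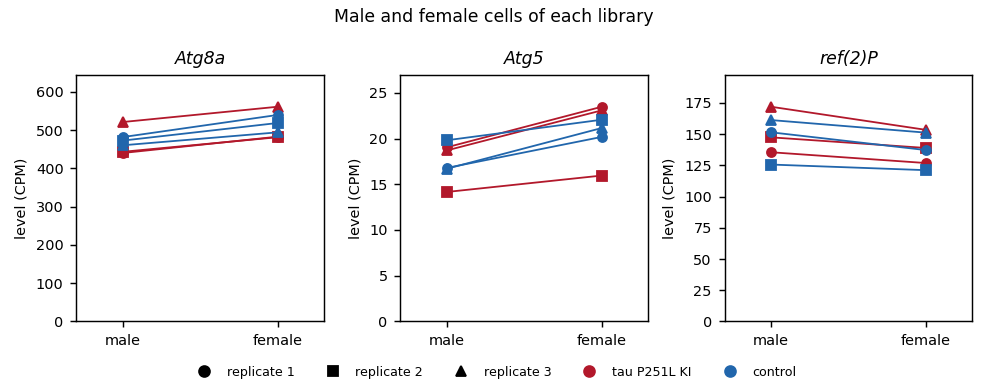
Level of Atg8a, Atg5 and ref(2)P in male cells (left) and female cells (right), in CPM on axes that start at 0, with a line for each library. For Atg8a and Atg5 every line is lower in male cells, and for ref(2)P every line is higher in male cells.

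Atg8a, which is X-linked, had 440.2, 443.3 and 521.1 CPM in the male cells of knock-in replicates 1 to 3 and 481.8, 472.6 and 460.3 CPM in those of control replicates 1 to 3. The female cells of the same libraries had 482.8, 481.4 and 561.1 CPM in the knock-in and 539.6, 518.6 and 494.1 CPM in the controls. Every library was lower in its male cells, although the male and female ranges overlapped between libraries. Male against female, the log2 fold change was -0.13 with an SE of 0.02 (edgeR, adjusted p = 0.00657). It lay between -0.16 and -0.11 under 16 alternatives and lost its call in 1, the fit without the library as a block.

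Atg5, also X-linked, averaged 17.5 ± 2.07 CPM in male cells and 21.0 ± 2.75 CPM in female cells (SD, n = 6), lower in male cells in 6 of 6 libraries. This gave a log2 fold change of -0.25 with an SE of 0.04 (edgeR, adjusted p = 0.0196). It lost its call in 4 of 16 alternatives, including the fits without knock-in replicate 1 (-0.25, adjusted p = 0.0773 in edgeR) and knock-in replicate 3 (-0.24, adjusted p = 0.0565 in edgeR). Over all X-linked features the median was -0.05 and 10.1% of 1545 were lower in male cells, while over the autosomes the median was 0.01 and 0.902% of 7538 were lower. ref(2)P averaged 148.8 ± 16.8 CPM in male cells and 138.1 ± 12.8 CPM in female cells (SD, n = 6), higher in 6 of 6 libraries. Its log2 fold change of 0.10 (edgeR, adjusted p = 0.0395) was lost in 12 of 16 alternatives. With sex called at equal depth per cell, an alternative chosen after seeing the data, it was 0.03 (edgeR, adjusted p = 0.628).

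Atg1, Atg7, Atg9 and Atg18a did not pass between male and female cells, with log2 fold changes between -0.15 for Atg9 and 0.03 for Atg1. Of the 82 list genes tested, 3 were lower and 1 higher in male cells. The fourth gene, beside the members, was Hexo2, at 11.4 ± 3.15 CPM in male cells and 16.1 ± 3.69 CPM in female cells (log2 fold change -0.47, adjusted p = 0.0499 in edgeR, SD, n = 6). It was named after its values were seen and lost its call in 10 of 16 alternatives.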

How the data were processed

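The deposited matrices hold UMI counts per feature and barcode, 1 matrix per library with 22064 features and no normalization. Cell Ranger 6.0 is named per the submitters' processing notes, and a different major version per the file headers. Genome build, annotation and strand of counting are not given in the sources used here. Positions were matched by identifier to the Ensembl annotation of BDGP6, which held 22016 features.

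Barcodes with at least 1000 UMIs were kept, with no filter on doublets or mitochondrial share. UMIs were summed per library and gate. The library was the replicate between genotypes. Comparisons of gates, and the test of the difference in genotype effect, took the 30 sums of 6 libraries as separate after the library block. Sums were tested with edgeR 4.0.16 in R 4.3.3 (quasi-likelihood, TMM factors, filterByExpr, two-sided, Benjamini-Hochberg over all features tested, threshold 0.05). The genotype was the only term between genotypes, and the library was a block between gates and sexes. CPM use TMM factors over the sums of a comparison, except in droplets without cells. SEs and 95% intervals were derived from the log2 fold change and the F statistic of the fit. For some genes they are narrower than the p-value of the test implies. DESeq2 1.42.0 was an alternative between genotypes. Of the fits, 4 were tested on simulated counts that had the same dispersion for every feature. Apart from the changes put in, a feature also had the same expected share in every sum, so differences between libraries, gates and sexes were left out. The changed features were drawn at random, so the shares called do not give the power for single autophagy genes. Between genotypes in all cells, 0% of 1.5-fold, 13.4% of 2-fold and 72.7% of 4-fold changes were called. In the repo gate the shares were 4.48%, 13.4% and 65.2%. For the repo gate against the neuron gates they were 26.9%, 62.7% and 93.9%, and between sexes 86.6%, 95.5% and 98.5%.

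The members, gates and lists were chosen with earlier results of these data known. Beside the 8 genes, the text names list genes past the threshold between genotypes, the 3 highest and 3 lowest with separate groups, and the 3 highest and 3 lowest past the threshold in the repo and prt comparisons. Alternatives changed the scaling, the filter, the minimum UMIs, the gates, the depth per cell, the blocks and the libraries. Same-numbered libraries did not deviate together in every pair, although those of replicate 3 did (r = 0.26). Replicate numbers were therefore not used as pairs.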

Additional observations from a re-analysis of the deposited data

Results flagged for a closer look

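Of the genes on the autophagy and lysosome list, 3 had a genotype effect that differed between glia and neurons by a test of the difference itself, taken as the effect in the repo gate minus that in the 4 neuron gates. All 3 belong to the proton pump, were named after their values were seen, and the effect was more negative in glia. The test used 30 sums from 6 libraries and took the spread of a feature as the same in all gates, although the repo sums held the fewest cells. Its p-values thus rest on more sums than the 3 libraries per genotype and can be too small. The difference was -0.77 on the log2 scale for Vha16-1 (edgeR, adjusted p = 0.00674), -0.62 for Vha13 (edgeR, adjusted p = 0.00278) and -0.85 for ATP6AP2, an accessory protein of the pump (edgeR, adjusted p = 0.00876). None of the 3 passed within the repo gate alone, where ATP6AP2 had 148.5 ± 13.1 CPM in the knock-in and 349.8 ± 42.6 CPM in controls (log2 fold change -1.22, adjusted p = 0.161 in edgeR, SD, n = 3 each).

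With every cell thinned to 1000 UMIs the differences were -0.37, 0.08 and -0.45 for Vha16-1, Vha13 and ATP6AP2, and without the deepest 10% of barcodes they were -0.16, 0.0098 and -0.41, none past the threshold in edgeR. Single libraries also mattered. Vha16-1 was not called without knock-in replicate 2 (-0.77), control replicate 2 (-0.54) or control replicate 3 (-0.81). Vha13 was not called without control replicate 3 (-0.59), and ATP6AP2 without knock-in replicate 1 (-0.84), control replicate 2 (-0.63) or control replicate 3 (-0.88). Median depth in the repo gate was 1780 to 2157 UMIs per cell in the knock-in and 1510 to 2769 in controls. The 5 neuron markers summed to 764.0 to 2785 CPM in the repo gates of the knock-in and 526.8 to 1417.5 CPM in those of the controls, and their part in these differences was not tested.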

How the results depend on the processing

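Between genotypes, 0 autophagy genes were called under every alternative run, in all cells and in each gate, while the number of features called varied. With only all-zero features left out it was 56 in all cells (25 as reported), 233 in the VAChT gate (28), 348 in the VGlut gate (17), 293 in the Gad1 gate (23), 243 in the prt gate (17) and 130 in the repo gate (2). DESeq2 called 381, 134, 58, 52, 41 and 22 in the same order. Replicate numbers did not pair all libraries. Same-numbered libraries had correlations of 0.12, 0.048 and 0.26 for replicates 1 to 3, and not every library correlated best with its own number. The replicate 3 libraries did correlate best with each other, beside -0.22 to -0.14 with the other libraries of the opposite genotype. The correlations are of deviations from the mean of a genotype, which add up to 0 within it. The negative values are therefore tied to the positive one and are no separate contrast. Whether the replicate 3 libraries share a batch was not tested. With the replicate block 8 features were called in all cells, 152 in the VAChT gate, 55 in the VGlut gate, 28 in the Gad1 gate, 30 in the prt gate and 27 in the repo gate. A term for deep libraries gave 13 in all cells, 80 in the VAChT gate, 27 in the VGlut gate, 31 in the prt gate and 22 in the repo gate. Cells thinned to 1000 UMIs gave 17 in the VAChT gate, 9 in the Gad1 gate, 7 in the prt gate and 1 in the repo gate, which also had 1 without the deepest 10% of barcodes. Gates that were not exclusive gave 29 in the VGlut gate, and a gate of at least 1 UMI gave 4 in the Gad1 gate. Leaving out 1 library gave 1 to 61 in all cells, 5 to 84 in the VAChT gate, 3 to 68 in the VGlut gate, 3 to 90 in the Gad1 gate, 3 to 76 in the prt gate and 0 to 61 in the repo gate. The causes were not tested.

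Small genotype differences turned round. In all cells, leaving out 1 library gave log2 fold changes of -0.108 (without knock-in replicate 3) to 0.030 (without knock-in replicate 2) for Atg8a, and a fit without knock-in replicate 1 gave 0.012, while the term for deep libraries gave 0.0081. Atg18a ran from -0.263 to 0.074, the highest without knock-in replicate 2, and Atg5 from -0.137 (without knock-in replicate 1) to 0.109 (without knock-in replicate 2). ref(2)P was -0.014 without knock-in replicate 3 or control replicate 2 and at most 0.111 with 1 library left out, without knock-in replicate 1. It was -0.00089 with a minimum of 2000 UMIs, and in the repo gate -0.0062 without the deepest 10% of barcodes. Between gates, Atg8a in glia against neurons was 0.040 with median-of-ratios factors and 0.071 with a minimum of 2000 UMIs. For the difference of the genotype effect, Vha13 was 0.083 with thinned cells and 0.0098 without the deepest 10% of barcodes. That comparison called 205 features as reported, 444 with only all-zero features left out, 64 with thinned cells and 41 to 489 without 1 library.

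Between gates, thinning left 1 of 3 autophagy genes called in glia (2491 features against 4216) and 1 of 3 in Kenyon cells (2884 against 4526). In Kenyon cells 1 was also left with only all-zero features left out, with a gate of at least 3 UMIs and with no library block. Without 1 library, 2 to 3 were called in each comparison. VGlut against VAChT called 0 with a gate of at least 1 UMI (616 features against 1037), 0 with no library block (272) and 0 to 1 without 1 library (661 to 917). Gad1 against VAChT called 0 with no library block (367 features against 1508). Between male and female cells, 1 of 3 was called with a minimum of 2000 UMIs, 0 with no library block and 1 to 2 without 1 library. Features called there numbered 444 as reported, 1206 with a minimum of 500 UMIs, 143 with a minimum of 2000 UMIs, 716 with thinned cells, 910 without the deepest 10% of barcodes, 20 with no library block, 290 with male cells from 1 roX UMI and 158 to 463 without 1 library. Depth limits glia most, with 73490 to 412160 UMIs per library in the repo gate.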
